A study of Homo sapiens with 24 samples.

Results

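The subject here is a deposited table of 68 genes measured in HCC1569 cells after transient knockdown of TFAP2C. All 68 rows were taken as members, out of 27431 gene symbols represented in the genome-wide tables of the same study. HCC1569 is an established human breast carcinoma line with HER2 amplification. The groups used, each of 3 samples, were HCC1569 cells with TFAP2C siRNA against HCC1569 cells with a non-targeting siRNA, HCC1954 cells with the same pair of siRNAs, HCC1954 clones with a stable lentiviral shRNA to TFAP2C against clones with a control shRNA, and SKBR3 cells with the siRNA pair. The siRNA groups were taken 72 to 96 h after transfection, all cells were between passages 5 and 10, and the submitters did not authenticate the lines. A single TFAP2C siRNA was used in every transient experiment, and the clones carry one shRNA. The stated purpose was to find genes under AP-2gamma control that bear on growth and invasiveness of HER2-positive cells.

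TFAP2C encodes AP-2gamma, a transcription factor of the AP-2 family that binds a GC-rich palindrome as a dimer and can activate or repress. In breast epithelium it is expressed in luminal cells, and it is a known activator of the HER2 gene ERBB2 and of several luminal genes. A knockdown can change direct targets as well as genes further downstream, and RNA levels alone do not separate the 2 kinds.

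Every level below is the authors' pooled FPKM (fragments per kilobase of transcript, scaled to the size of the library), 1 value for the 3 samples of a group, so no spread between samples can be shown. A gene is called, and said to rise or fall, where its q in the authors' deposited table was below 0.05. The labels do not state whether the samples of a group were separate cultures, so that q reflects the variation among the samples used, which could be technical. RNA was measured in bulk, so a smaller share of expressing cells and less RNA per cell cannot be told apart. The HCC1569 table has no row for TFAP2C, and the depth of knockdown in this line was not analysed here. With the same siRNA, TFAP2C stood at 22.0 FPKM against 92.4 FPKM with non-targeting siRNA in HCC1954, and at 53.9 FPKM with TFAP2C siRNA against 157 FPKM with non-targeting siRNA in SKBR3. Of 17 marker genes of epithelial, HER2-amplified, fibroblast, endothelial and leukocyte cells, 2 are in the HCC1569 table, the endothelial genes CDH5 and PECAM1, listed at 0 and 0.0124 FPKM with TFAP2C siRNA and at 0 in both cases with non-targeting siRNA. The epithelial label therefore could not be checked by its own markers.

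The labels do not say how the 68 genes were chosen. All 68 genes were called in both HCC1954 comparisons and in the same direction in each, 46 higher and 22 lower with knockdown. The background there was 3.28% of all tested symbols called with siRNA (2.31% higher and 0.965% lower) and 75.4% with shRNA (36.3% higher and 39.2% lower). In SKBR3, where 33.3% of tested symbols were called (12.3% higher and 21.0% lower), 31 of the 68 genes were called, 9 higher and 22 lower, and in 31 of 31 cases the SKBR3 direction was opposite to that in HCC1954. Among all symbols, 151 were called alike in both HCC1954 comparisons. Of these, 48 were also called alike in SKBR3, and 0 of the 48 are in the table. The 31 called opposite in SKBR3 are all in the table, as are 37 of the 72 not called in SKBR3. The shRNA cells of HCC1954 stood apart in their markers. TFAP2C was at 3.46 FPKM with TFAP2C shRNA and 81.0 FPKM with control shRNA, ERBB2 at 16.9 FPKM with TFAP2C shRNA and 1315 FPKM with control shRNA, and GRB7 at 0.528 FPKM with TFAP2C shRNA and 30.5 FPKM with control shRNA. The summed level of 6 epithelial markers was 1996 FPKM with TFAP2C shRNA and 2001 FPKM with control shRNA, with 4 of the 6 lower in the knockdown. Among them, CDH1 was at 10.9 FPKM with TFAP2C shRNA and 116 FPKM with control shRNA, and KRT19 at 634 FPKM with TFAP2C shRNA and 19.9 FPKM with control shRNA. The summed level of 3 endothelial markers was 0.119 FPKM with TFAP2C shRNA and 21.3 FPKM with control shRNA, that of 3 fibroblast markers 1.73 FPKM with TFAP2C shRNA and 0.322 FPKM with control shRNA, and that of 3 leukocyte markers 3.97 FPKM with TFAP2C shRNA and 5.39 FPKM with control shRNA, with COL1A2 and CD3E listed at 0 in both groups. In HCC1954 with siRNA, ERBB2 was at 3571 FPKM with TFAP2C siRNA and 4205 FPKM with non-targeting siRNA, and CDH1 at 245 FPKM with TFAP2C siRNA and 236 FPKM with non-targeting siRNA. GRB7 was at 721 FPKM with TFAP2C siRNA and 1061 FPKM with non-targeting siRNA there. Its level thus differed between the siRNA and shRNA controls of HCC1954 as well, although levels set across separately normalized tables are rough. The part of these markers in the shRNA values given here was not tested. The values in HCC1954 and SKBR3 are given as a description, with no support drawn from them. The table also keeps 15 genes that were tested and not called in HCC1569 and 22 that were not tested there.

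In HCC1569, TFAP2C siRNA was followed by higher levels of most of the genes that could be tested. Of 46 tested genes 26 rose and 5 fell, 67.4% called in either direction, 56.5% higher and 10.9% lower. These shares describe the selected list and no wider set of genes. The 3 largest rises by ratio were those of RARRES3, SMPDL3B and S100A9, each between 8.59-fold and 9.92-fold, and the largest fall was that of DUSP7, 2.13-fold. The median log2 ratio of TFAP2C siRNA over non-targeting siRNA was 0.95 over the 46 tested genes. The same 46 genes had a median log2 ratio of 0.56 with siRNA in HCC1954, where all tested symbols together had -0.0039.

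**Figure D1:**
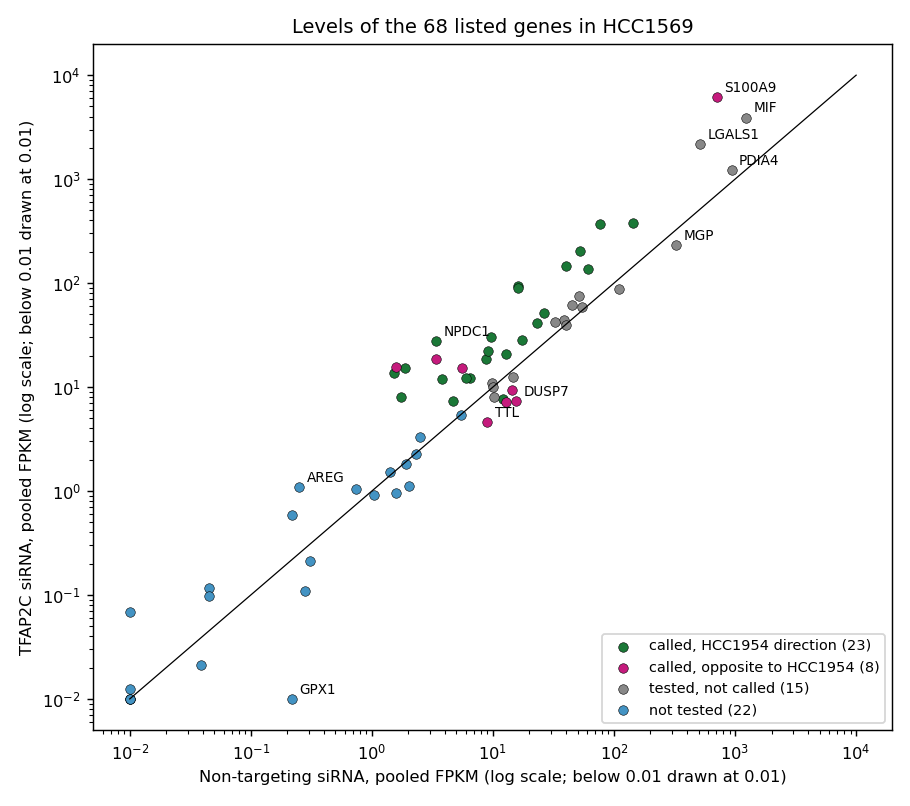
Pooled FPKM of the 68 genes in HCC1569 on log axes, TFAP2C siRNA (vertical) against non-targeting siRNA (horizontal), 1 point a gene, coloured by its call, with the diagonal marking equal levels. Genes above the diagonal were higher with TFAP2C siRNA; S100A9 lies highest at 6118 FPKM with TFAP2C siRNA, and the 22 genes that were not tested lie at or under 5.50 FPKM.

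Set beside HCC1954, 23 of the 31 called genes moved in their HCC1954 direction and 8 moved against it. Of 36 tested genes that were higher in HCC1954, 22 rose, 4 fell and 10 were not called in HCC1569. Of 10 tested genes that were lower in HCC1954, 4 rose, 1 fell and 5 were not called. Among the 23 genes with the HCC1954 direction, the log2 ratio was larger in size in HCC1569 than with siRNA in HCC1954 in 19 cases, and larger than with shRNA in 16. These genes had passed the call in HCC1569, where the 31 called genes had log2 ratios of at least 0.63 in size. With siRNA in HCC1954 the same 31 went down to 0.42. The 15 tested genes that were not called had a median size of 0.35 in HCC1569. The counts therefore do not show a stronger response in HCC1569. Of the 23, 10 were called in SKBR3, all opposite to HCC1569, and 13 were not called there. Of the 8 that moved against HCC1954, 8 were called in SKBR3, in each case in the HCC1569 direction. The list holds no gene called alike in HCC1954 and SKBR3, so a call in SKBR3 could take no other direction in either set. Where a ratio is called larger or smaller in 1 line than in another without a test beside it, that is a description.

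**Figure D2:**
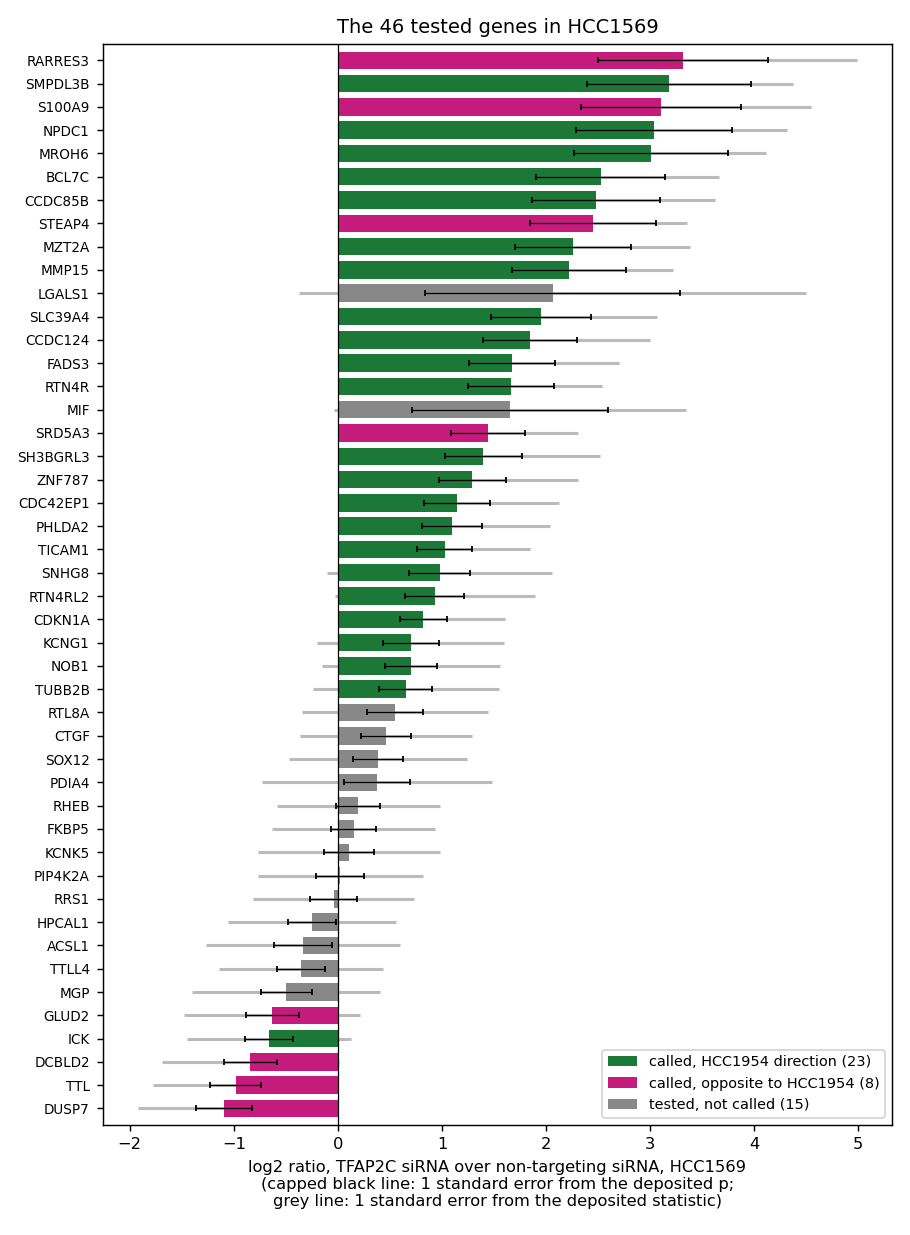
Log2 ratio of TFAP2C siRNA over non-targeting siRNA in HCC1569 for the 46 tested genes, coloured by whether the call follows or opposes HCC1954; the capped black line is 1 standard error derived from the deposited p and the grey line 1 standard error derived from the deposited statistic. The ratios run from -1.09 (DUSP7) to 3.31 (RARRES3), and the grey intervals are wider than the black ones for every gene.

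The authors' p and statistic imply different errors, which sets how firmly single genes can be compared. The standard error implied by the statistic had a median of 0.90 log2 units over the 46 genes, and that implied by p a median of 0.29. Of the 31 called genes, 18 had the smallest p in the table, 5e-05, and q = 2.84e-04 in the authors' deposited table. The 10 largest rises all had that p and q, and the authors' deposited statistic was RARRES3 1.98, SMPDL3B 2.67, S100A9 2.16, NPDC1 2.37, MROH6 2.72, BCL7C 2.22, CCDC85B 2.17, STEAP4 2.70, MZT2A 2.00, MMP15 2.24. For the falls the deposited statistic was DUSP7 -1.32, TTL -1.24, DCBLD2 -0.99, ICK -0.84, GLUD2 -0.74. In the authors' deposited table q was 2.84e-04 for DUSP7 and TTL, 3.25e-03 for DCBLD2, 0.0145 for ICK and 0.0334 for GLUD2. The other called genes had q between 5.33e-04 and 0.0334 in the authors' deposited table.

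AP-2 proteins recognise a palindrome, which was looked for in the RefSeq promoter windows (GRCh38.p14, 250 bases before to 50 after an annotated start). Windows were given for 46 of the 68 genes. The motif GCCNNNGGC, which reads the same on both strands, was in a window of 19 of the 46 genes, 41.3%, against 26.6% of all 27305 genes with a window. The median GC content of the member windows was 69.8%, against 58.7% for all windows. The motif was in a window of 6 of 17 genes called in the HCC1954 direction, 2 of 7 called opposite to it, 5 of 11 tested and not called and 6 of 11 not tested. CDKN1A, S100A9 and DUSP7 did not have these letters in the windows given for them. The 250 bases before the start used for CDKN1A, chromosome 6, 36678464 to 36678713, lie inside the annotated gene. Its outermost 5' end was not searched. A match is a description of letters and not a binding site.

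The 250 bases before the start are shown for 4 called genes that hold the motif there, STEAP4 as a gene called in opposite directions in HCC1569 and HCC1954 and 3 that rose in both HCC1569 and HCC1954, 5' to 3' on the gene's strand, with the motif in capitals (GRCh38.p14).
STEAP4, chr7:88306895-88307144, minus strand: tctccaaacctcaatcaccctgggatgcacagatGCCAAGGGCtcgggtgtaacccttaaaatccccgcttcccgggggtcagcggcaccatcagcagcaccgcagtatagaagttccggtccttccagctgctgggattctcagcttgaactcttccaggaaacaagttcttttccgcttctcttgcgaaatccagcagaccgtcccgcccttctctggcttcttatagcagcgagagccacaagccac
MMP15, chr16:58025504-58025753, plus strand: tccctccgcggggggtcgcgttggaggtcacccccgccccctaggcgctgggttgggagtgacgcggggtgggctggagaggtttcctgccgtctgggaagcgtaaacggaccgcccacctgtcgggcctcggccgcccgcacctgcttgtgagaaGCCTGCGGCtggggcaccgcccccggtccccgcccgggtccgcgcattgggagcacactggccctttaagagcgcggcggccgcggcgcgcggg
FADS3, chr11:61891546-61891795, minus strand: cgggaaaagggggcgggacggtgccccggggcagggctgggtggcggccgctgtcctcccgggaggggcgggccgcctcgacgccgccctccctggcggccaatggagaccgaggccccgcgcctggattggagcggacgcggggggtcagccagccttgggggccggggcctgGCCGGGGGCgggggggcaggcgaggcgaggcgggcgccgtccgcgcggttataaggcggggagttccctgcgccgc
SH3BGRL3, chr1:26279836-26280085, plus strand: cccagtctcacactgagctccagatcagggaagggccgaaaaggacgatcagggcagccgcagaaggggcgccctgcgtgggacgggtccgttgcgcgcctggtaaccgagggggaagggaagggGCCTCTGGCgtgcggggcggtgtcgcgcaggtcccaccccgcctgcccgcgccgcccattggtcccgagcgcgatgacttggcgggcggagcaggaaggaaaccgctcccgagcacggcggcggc
The motif began 216 bases before the start in STEAP4, 94 in MMP15, 76 in FADS3 and 125 in SH3BGRL3. The bases shown for FADS3 lie inside the annotated gene, which reaches to 61892224 on chromosome 11. Its outermost 5' end was not searched. GC content of the 250 bases was 55.6% in STEAP4, 74.8% in MMP15, 80.4% in FADS3 and 72.0% in SH3BGRL3.

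Of 12 genes of growth control and signalling, 9 were tested, of which 3 rose and 2 fell. CDKN1A, the gene of the cyclin-dependent kinase inhibitor p21 (chromosome 6, 36676463 to 36687332, GRCh38), rose to 41.0 FPKM with TFAP2C siRNA, against 23.2 FPKM with non-targeting siRNA, 1.77-fold (q = 1.39e-03 in the authors' deposited table). Its ratio was smaller here than in HCC1954, where it stood at 38.8 FPKM with TFAP2C siRNA against 8.59 FPKM with non-targeting siRNA and at 83.6 FPKM with TFAP2C shRNA against 35.7 FPKM with control shRNA. The HCC1954 values of CDKN1A are of a single transcript out of 5, and the HCC1569 value is of a single row for the gene. PHLDA2, an imprinted gene that restrains placental growth, rose to 18.8 FPKM with TFAP2C siRNA, against 8.80 FPKM with non-targeting siRNA. TICAM1, the adaptor TRIF of Toll-like receptor signalling, rose to 12.3 FPKM with TFAP2C siRNA, against 6.05 FPKM with non-targeting siRNA. DUSP7, a phosphatase of ERK kinases, fell to 7.30 FPKM with TFAP2C siRNA, against 15.6 FPKM with non-targeting siRNA. ICK (now CILK1), a kinase of the primary cilium, fell to 7.72 FPKM with TFAP2C siRNA, against 12.2 FPKM with non-targeting siRNA, and was the sole gene called lower in both HCC1569 and HCC1954, where it was at 10.9 FPKM with TFAP2C siRNA against 18.6 FPKM with non-targeting siRNA and 9.22 FPKM with TFAP2C shRNA against 21.2 FPKM with control shRNA. PHLDA2 was at 23.7 FPKM with TFAP2C siRNA against 13.9 FPKM with non-targeting siRNA and 81.5 FPKM with TFAP2C shRNA against 32.3 FPKM with control shRNA in HCC1954. TICAM1 was at 20.1 FPKM with TFAP2C siRNA against 14.3 FPKM with non-targeting siRNA and 14.1 FPKM with TFAP2C shRNA against 11.1 FPKM with control shRNA there. Both were thus higher with knockdown in each HCC1954 experiment as well. The row of PHLDA2 lies on an alternate contig.

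The other 4 tested genes of this group did not pass. The matrix-associated growth factor gene CTGF (now CCN2) stood at 62.2 FPKM with TFAP2C siRNA and 45.2 FPKM with non-targeting siRNA, and RHEB, an activator of mTORC1, at 44.3 FPKM with TFAP2C siRNA and 38.7 FPKM with non-targeting siRNA. The lipid kinase gene PIP4K2A stood at 10.1 FPKM with TFAP2C siRNA and 9.94 FPKM with non-targeting siRNA. MIF, a cytokine gene, stood at 3894 FPKM with TFAP2C siRNA and 1238 FPKM with non-targeting siRNA, a 3.14-fold difference with q = 0.148 in the authors' deposited table. Its row lies on an alternate contig and spans a locus 6.21 times as long as the RefSeq gene, so reads of a neighbouring gene may enter that value, and its standard error from the statistic, 1.69 log2 units, was exceeded by that of LGALS1 alone.

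Of 6 genes of transcription and chromatin, 3 were tested and 2 rose. BCL7C, a subunit of SWI/SNF chromatin remodellers, rose to 93.5 FPKM, against 16.3 FPKM with non-targeting siRNA, 5.75-fold. The zinc finger gene ZNF787 rose to 22.3 FPKM with TFAP2C siRNA, against 9.11 FPKM with non-targeting siRNA. The SRY-box factor gene SOX12 stood at 42.3 FPKM with TFAP2C siRNA and 32.4 FPKM with non-targeting siRNA and was not called. BCL7C was also higher in HCC1954, at 12.8 FPKM with TFAP2C siRNA against 7.35 FPKM with non-targeting siRNA and 16.5 FPKM with TFAP2C shRNA against 7.77 FPKM with control shRNA. ZNF787 was at 22.8 FPKM with TFAP2C siRNA against 15.6 FPKM with non-targeting siRNA and 20.5 FPKM with TFAP2C shRNA against 15.8 FPKM with control shRNA in HCC1954.

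Of 6 genes of innate defence, lipid signalling and inflammation 5 were tested, with 4 rises and 0 falls and a median log2 ratio of 3.10. The role groups were formed after the values were seen, so they are not ranked against each other. TICAM1 and MIF, placed above with growth control, could also have been placed here. S100A9, which pairs with S100A8 to form the calcium-binding protein calprotectin (chromosome 1, 153357854 to 153361023, GRCh38), rose to 6118 FPKM with TFAP2C siRNA, against 712 FPKM with non-targeting siRNA. RARRES3 (now PLAAT4), a retinoid-induced phospholipid acyltransferase, rose to 15.7 FPKM with TFAP2C siRNA, against 1.58 FPKM with non-targeting siRNA. STEAP4, a metalloreductase of iron and copper, rose to 18.6 FPKM with TFAP2C siRNA, against 3.41 FPKM with non-targeting siRNA, 5.46-fold. These 3 genes were lower with knockdown in HCC1954, as set out further on. SMPDL3B, a membrane phosphodiesterase that tunes Toll-like receptor signalling, rose 9.06-fold to 13.7 FPKM with TFAP2C siRNA, against 1.51 FPKM with non-targeting siRNA, and was higher in HCC1954 too, at 24.5 FPKM with TFAP2C siRNA against 16.7 FPKM with non-targeting siRNA and 7.90 FPKM with TFAP2C shRNA against 3.65 FPKM with control shRNA. LGALS1, the gene of galectin 1, stood at 2159 FPKM with TFAP2C siRNA and 517 FPKM with non-targeting siRNA and was not called. Its row spans a locus 89.7 times as long as the RefSeq gene, so reads of neighbouring genes may enter that value.

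Of 10 genes of the cell surface, adhesion and matrix, 6 were tested, with 4 rises and 1 fall. NPDC1, a membrane protein gene first described in neural cells, rose 8.21-fold to 27.8 FPKM with TFAP2C siRNA, against 3.38 FPKM with non-targeting siRNA. MMP15, a membrane-type matrix metalloproteinase, rose 4.67-fold to 8.08 FPKM with TFAP2C siRNA, against 1.73 FPKM with non-targeting siRNA. The Nogo receptor gene RTN4R rose to 30.4 FPKM with TFAP2C siRNA, against 9.59 FPKM with non-targeting siRNA, and its relative RTN4RL2 to 12.2 FPKM with TFAP2C siRNA, against 6.43 FPKM with non-targeting siRNA. All 4 were higher with knockdown in HCC1954 too. NPDC1 was at 33.2 FPKM with TFAP2C siRNA against 23.3 FPKM with non-targeting siRNA and 25.2 FPKM with TFAP2C shRNA against 21.4 FPKM with control shRNA there, and MMP15 at 22.2 FPKM with TFAP2C siRNA against 16.1 FPKM with non-targeting siRNA and 18.9 FPKM with TFAP2C shRNA against 13.0 FPKM with control shRNA. RTN4R was at 5.91 FPKM with TFAP2C siRNA against 2.92 FPKM with non-targeting siRNA and 15.8 FPKM with TFAP2C shRNA against 7.45 FPKM with control shRNA, and RTN4RL2 at 4.31 FPKM with TFAP2C siRNA against 2.09 FPKM with non-targeting siRNA and 19.2 FPKM with TFAP2C shRNA against 5.81 FPKM with control shRNA. DCBLD2, a neuropilin-like receptor gene, fell to 7.17 FPKM with TFAP2C siRNA, against 12.8 FPKM with non-targeting siRNA. MGP, an inhibitor of matrix calcification, stood at 231 FPKM with TFAP2C siRNA and 327 FPKM with non-targeting siRNA and was not called.

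All 3 ion channel and transporter genes were tested and 2 rose. SLC39A4, the gene of the zinc importer ZIP4, rose 3.86-fold to 203 FPKM with TFAP2C siRNA, against 52.7 FPKM with non-targeting siRNA. KCNG1, a modifier subunit of voltage-gated potassium channels, rose to 28.2 FPKM with TFAP2C siRNA, against 17.4 FPKM with non-targeting siRNA. KCNK5, a two-pore potassium channel gene, stood at 58.4 FPKM with TFAP2C siRNA and 54.3 FPKM with non-targeting siRNA and was not called, while in HCC1954 it was at 12.2 FPKM with TFAP2C siRNA against 6.62 FPKM with non-targeting siRNA and 5.86 FPKM with TFAP2C shRNA against 4.32 FPKM with control shRNA. SLC39A4 was at 59.8 FPKM with TFAP2C siRNA against 40.7 FPKM with non-targeting siRNA and 47.7 FPKM with TFAP2C shRNA against 21.9 FPKM with control shRNA in HCC1954, and KCNG1 at 14.5 FPKM with TFAP2C siRNA against 10.1 FPKM with non-targeting siRNA and 13.5 FPKM with TFAP2C shRNA against 4.66 FPKM with control shRNA.

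Of 9 cytoskeleton and small GTPase genes, 6 were tested, with 4 rises and 1 fall. MZT2A, a subunit of the gamma-tubulin complex, rose 4.78-fold to 367 FPKM with TFAP2C siRNA, against 76.9 FPKM with non-targeting siRNA. SH3BGRL3 rose to 376 FPKM with TFAP2C siRNA, against 143 FPKM with non-targeting siRNA, and CDC42EP1, an effector of the GTPase CDC42, to 136 FPKM with TFAP2C siRNA, against 61.6 FPKM with non-targeting siRNA. The tubulin gene TUBB2B rose to 7.27 FPKM with TFAP2C siRNA, against 4.64 FPKM with non-targeting siRNA. TTL, which restores the terminal tyrosine of alpha-tubulin, fell to 4.56 FPKM with TFAP2C siRNA, against 9.02 FPKM with non-targeting siRNA. TTLL4, a polyglutamylase, stood at 7.94 FPKM with TFAP2C siRNA and 10.1 FPKM with non-targeting siRNA and was not called. MZT2A and TUBB2B each have a close copy in the genome between which reads can be split, so their levels are uncertain. In HCC1954, MZT2A was at 88.0 FPKM with TFAP2C siRNA against 58.9 FPKM with non-targeting siRNA and 92.2 FPKM with TFAP2C shRNA against 81.5 FPKM with control shRNA, and SH3BGRL3 at 90.8 FPKM with TFAP2C siRNA against 66.4 FPKM with non-targeting siRNA and 108 FPKM with TFAP2C shRNA against 88.8 FPKM with control shRNA. CDC42EP1 was at 117 FPKM with TFAP2C siRNA against 78.5 FPKM with non-targeting siRNA and 71.1 FPKM with TFAP2C shRNA against 53.4 FPKM with control shRNA there, and TUBB2B at 10.9 FPKM with TFAP2C siRNA against 7.03 FPKM with non-targeting siRNA and 11.6 FPKM with TFAP2C shRNA against 8.02 FPKM with control shRNA. The ratio of MZT2A was larger in HCC1569 than in either HCC1954 experiment.

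Of 10 genes of lipid, steroid, redox and other enzymes, 6 were tested, with 2 rises and 1 fall. FADS3, of the fatty acid desaturase family, rose 3.18-fold to 12.0 FPKM with TFAP2C siRNA, against 3.78 FPKM with non-targeting siRNA, and was at 17.5 FPKM with TFAP2C siRNA against 11.0 FPKM with non-targeting siRNA and 8.37 FPKM with TFAP2C shRNA against 4.20 FPKM with control shRNA in HCC1954. SRD5A3, a polyprenol reductase needed for dolichol and protein glycosylation, rose 2.72-fold to 15.1 FPKM with TFAP2C siRNA, against 5.55 FPKM with non-targeting siRNA. GLUD2, a retrocopy of the glutamate dehydrogenase gene GLUD1, fell to 9.37 FPKM with TFAP2C siRNA, against 14.5 FPKM with non-targeting siRNA, and its reads may belong to GLUD1. Not called were ACSL1, a fatty acyl-CoA synthetase, at 87.4 FPKM with TFAP2C siRNA and 110 FPKM with non-targeting siRNA, the chaperone-like disulfide isomerase PDIA4 at 1213 FPKM with TFAP2C siRNA and 936 FPKM with non-targeting siRNA, and the steroid receptor co-chaperone FKBP5 at 11.0 FPKM with TFAP2C siRNA and 9.90 FPKM with non-targeting siRNA.

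All 4 genes of ribosome and translation were tested and 3 rose. CCDC124, a ribosome-bound factor, rose 3.60-fold to 145 FPKM with TFAP2C siRNA, against 40.2 FPKM with non-targeting siRNA. The snoRNA host gene SNHG8 rose to 51.5 FPKM with TFAP2C siRNA, against 26.2 FPKM with non-targeting siRNA, and NOB1, the nuclease that finishes 18S rRNA, to 20.9 FPKM with TFAP2C siRNA, against 12.9 FPKM with non-targeting siRNA. RRS1, needed for assembly of the large ribosomal subunit, stood at 39.3 FPKM with TFAP2C siRNA and 40.4 FPKM with non-targeting siRNA and was not called. In HCC1954, CCDC124 was at 69.6 FPKM with TFAP2C siRNA against 48.7 FPKM with non-targeting siRNA and 130 FPKM with TFAP2C shRNA against 41.3 FPKM with control shRNA, and SNHG8 at 139 FPKM with TFAP2C siRNA against 90.2 FPKM with non-targeting siRNA and 65.7 FPKM with TFAP2C shRNA against 21.1 FPKM with control shRNA. NOB1 was at 21.5 FPKM with TFAP2C siRNA against 7.67 FPKM with non-targeting siRNA and 57.3 FPKM with TFAP2C shRNA against 22.0 FPKM with control shRNA there, a larger ratio than in HCC1569 with either method. These HCC1954 values of NOB1 are of a single transcript out of 2, a non-coding one by its RefSeq prefix. HCC1569 has a single row for the gene, so the ratios may not measure the same RNA.

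Of 4 other genes, all tested, 2 rose. CCDC85B, a coiled-coil protein gene, rose 5.58-fold to 89.2 FPKM with TFAP2C siRNA, against 16.0 FPKM with non-targeting siRNA. MROH6 rose 8.03-fold to 15.1 FPKM with TFAP2C siRNA, against 1.88 FPKM with non-targeting siRNA, on a row listed on an alternate contig. In HCC1954, CCDC85B was at 4.97 FPKM with TFAP2C siRNA against 2.51 FPKM with non-targeting siRNA and 65.2 FPKM with TFAP2C shRNA against 33.6 FPKM with control shRNA, and MROH6 at 4.18 FPKM with TFAP2C siRNA against 2.57 FPKM with non-targeting siRNA and 10.4 FPKM with TFAP2C shRNA against 2.23 FPKM with control shRNA. RTL8A, from a retrotransposon-derived family with near-identical copies, stood at 74.7 FPKM with TFAP2C siRNA and 51.1 FPKM with non-targeting siRNA, and HPCAL1, a neuronal calcium sensor, at 12.4 FPKM with TFAP2C siRNA and 14.7 FPKM with non-targeting siRNA, and neither was called. Grouping by role was done after the values were seen. Of the pathway lists drawn up for the tissue and treatment, that of known AP-2 targets held 2 members, CDKN1A and GPX1, that of mesenchymal genes 2, CTGF and HMGA2, and no other list more than 1.

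The 8 genes that moved against HCC1954 fell into 4 that rose in HCC1569 and 4 that fell. S100A9, at 6118 FPKM with TFAP2C siRNA against 712 FPKM with non-targeting siRNA in HCC1569, was lower with knockdown in HCC1954, at 3711 FPKM with TFAP2C siRNA against 5716 FPKM with non-targeting siRNA and 0.416 FPKM with TFAP2C shRNA against 11153 FPKM with control shRNA, and higher in SKBR3, at 7152 FPKM with TFAP2C siRNA against 4667 FPKM with non-targeting siRNA. STEAP4 (chromosome 7, 88270892 to 88306894, GRCh38) was at 123 FPKM with TFAP2C siRNA against 222 FPKM with non-targeting siRNA and 0.0406 FPKM with TFAP2C shRNA against 341 FPKM with control shRNA in HCC1954, and at 38.5 FPKM with TFAP2C siRNA against 27.0 FPKM with non-targeting siRNA in SKBR3. RARRES3 was at 316 FPKM with TFAP2C siRNA against 458 FPKM with non-targeting siRNA and 0.202 FPKM with TFAP2C shRNA against 66.6 FPKM with control shRNA in HCC1954, and at 389 FPKM with TFAP2C siRNA against 267 FPKM with non-targeting siRNA in SKBR3. SRD5A3 was at 29.2 FPKM with TFAP2C siRNA against 39.1 FPKM with non-targeting siRNA and 5.14 FPKM with TFAP2C shRNA against 40.3 FPKM with control shRNA in HCC1954, and at 37.3 FPKM with TFAP2C siRNA against 30.6 FPKM with non-targeting siRNA in SKBR3. The control level of each of these 4 genes was lower in HCC1569 than in the siRNA controls of the other lines, although levels set across separately normalized tables are rough.

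Among the 4 that fell in HCC1569, DUSP7 (chromosome 3, 52048919 to 52056571, GRCh38) was higher with knockdown in HCC1954, at 10.8 FPKM with TFAP2C siRNA against 5.98 FPKM with non-targeting siRNA and 16.5 FPKM with TFAP2C shRNA against 6.38 FPKM with control shRNA, and lower in SKBR3, at 4.57 FPKM with TFAP2C siRNA against 6.51 FPKM with non-targeting siRNA. DCBLD2 was at 37.8 FPKM with TFAP2C siRNA against 24.4 FPKM with non-targeting siRNA and 254 FPKM with TFAP2C shRNA against 44.8 FPKM with control shRNA in HCC1954, and at 2.92 FPKM with TFAP2C siRNA against 4.78 FPKM with non-targeting siRNA in SKBR3. TTL was at 12.3 FPKM with TFAP2C siRNA against 8.30 FPKM with non-targeting siRNA and 23.4 FPKM with TFAP2C shRNA against 18.4 FPKM with control shRNA in HCC1954, and at 2.53 FPKM with TFAP2C siRNA against 5.28 FPKM with non-targeting siRNA in SKBR3. These 3 genes thus had lower levels with knockdown in HCC1569 and SKBR3 and higher levels in both HCC1954 experiments. GLUD2 followed the same order, at 26.1 FPKM with TFAP2C siRNA against 18.2 FPKM with non-targeting siRNA and 71.1 FPKM with TFAP2C shRNA against 43.4 FPKM with control shRNA in HCC1954, and at 37.1 FPKM with TFAP2C siRNA against 48.6 FPKM with non-targeting siRNA in SKBR3. Since the table holds no gene called alike in HCC1954 and SKBR3, an SKBR3 call in it could only oppose HCC1954.

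**Figure D3:**
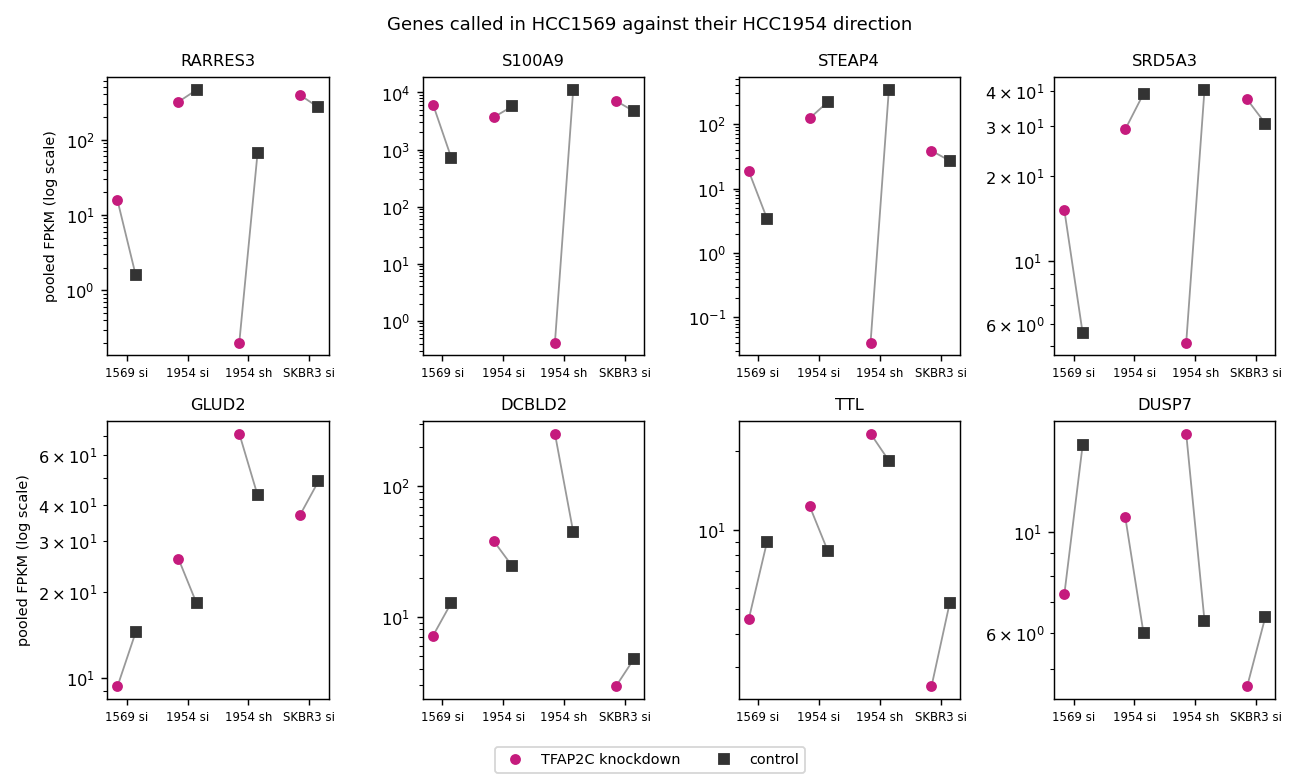
Pooled FPKM (log scale) of the 8 genes called in HCC1569 against their HCC1954 direction, with TFAP2C knockdown (circle) left of control (square) in each of the 4 comparisons, whose names are shortened on the axis. The lines slope the same way in HCC1569 and SKBR3 and the other way in both HCC1954 comparisons for each of the 8 genes. In this list a gene called in SKBR3 could only slope against HCC1954 there.

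The gap between HCC1569 and HCC1954 is described gene by gene by a z statistic, in which the gap between both log2 ratios was divided by its standard error, combined from the errors that the authors' statistic implies. Every gene of the list was called in HCC1954, so 1 of both ratios in each gap is a selected value, and a gene past the threshold is not independent evidence that the lines differ. With siRNA in both lines, 46 genes were compared, and STEAP4 alone was past a Benjamini-Hochberg adjusted threshold of 0.05, with a log2 gap of 3.30 ± 0.98 (standard error). The 5 largest positive z were those of STEAP4 (3.38), S100A9 (2.51), RARRES3 (2.26), SMPDL3B (2.09) and SRD5A3 (2.05). The 5 largest negative z were those of DUSP7 (-2.13), TTL (-1.81), DCBLD2 (-1.63), GLUD2 (-1.26) and HPCAL1 (-1.17). Where errors were taken from the deposited p instead, 26 genes were past it, including all 8 that moved against HCC1954. Those 8 were called in opposite directions in HCC1569 and HCC1954, and an error from p is the ratio scaled by that p. Their passing thus follows from the calls that group them and adds nothing to those calls.

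Against shRNA in HCC1954, 45 genes were compared, since MGP was listed at 0 in the shRNA knockdown, and 6 were past the threshold. These were S100A9 (z = 5.07), SRD5A3 (4.94), CTGF (3.98) and STEAP4 (3.88), higher in HCC1569 relative to HCC1954, and DCBLD2 (-3.89) and DUSP7 (-2.83), lower. The 5 largest z of each sign also held RARRES3 (2.38), PIP4K2A (-1.81), SOX12 (-1.74) and TTL (-1.63), and none of these 4 was past it. Line and knockdown method differ together here and cannot be told apart. With at least 1 FPKM required in all groups compared, SRD5A3 and DCBLD2 remained. DUSP7 met that minimum and was no longer past the threshold, while S100A9, STEAP4 and CTGF were under it with TFAP2C shRNA.

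**Figure D4:**
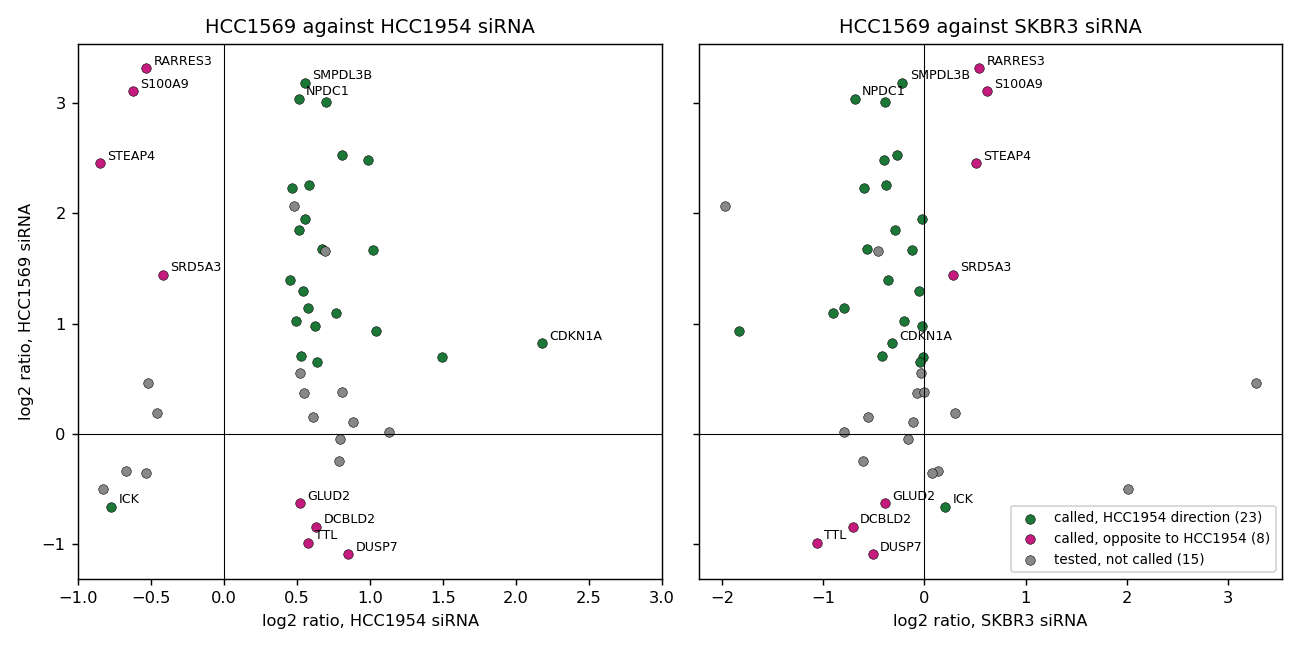
Log2 ratio in HCC1569 (vertical) against that with siRNA in HCC1954 (left) and in SKBR3 (right) for the 46 tested genes, coloured by call. The left panel has no points near a horizontal value of 0 because all genes were called in HCC1954. The 8 genes opposite to HCC1954 lie in the upper left and lower right of that panel, and in the upper right and lower left against SKBR3. An SKBR3 call in this list could only oppose HCC1954.

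The ratios were also set against each other across genes. Across the 46 tested genes, Pearson's r of the HCC1569 log2 ratio was 0.0001 with that of siRNA in HCC1954 and -0.058 with that in SKBR3, and Spearman's coefficient was -0.073 and -0.0067 in the same order. With shRNA in HCC1954, Pearson's r was -0.30 and Spearman's coefficient -0.021 over 45 genes. Among the 9 of these that were lower in HCC1954, Pearson's r was -0.86 and Spearman's coefficient -0.80, and among the 36 that were higher there -0.0052 and -0.0018. The largest shRNA ratios among the 9 rest on levels near 0 with TFAP2C shRNA. These were 0.416 FPKM for S100A9, 0.0406 FPKM for STEAP4, 0.202 FPKM for RARRES3 and 0.787 FPKM for CTGF. The size of such ratios is uncertain, and so are the coefficients over the 9. These are descriptions across genes of a list without small HCC1954 ratios, all measured in the same 2 pools of each comparison, and genes are not independent replicates.

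The genes that rose in HCC1569 had transcripts of higher GC content and shorter length, by the median, than those that fell. The canonical transcript of the 26 risers had a median GC content of 64.3% and a median length of 1932.5 bases, that of the 5 that fell 42.5% and 6128 bases, and that of the 15 tested and not called 52.8% and 2338 bases. Across the 46 tested genes the log2 ratio in HCC1569 and transcript GC had a Spearman's coefficient of 0.53, and log2 ratio and length -0.50. For the same genes, the Spearman's coefficient between GC and log2 ratio was 0.40 with siRNA in HCC1954, 0.27 with shRNA (45 genes) and -0.40 in SKBR3. Over all symbols tested it was 0.14, 0.054 and -0.13 in these 3 comparisons. The 23 genes with the HCC1954 direction had a median GC of 66.1%, and the 8 opposite to it 45.5%. The canonical transcript of SNHG8, 6166 bases with 39.0% GC, is longer than the listed locus of 1063 bases, so these values describe another transcript than the one measured. Without SNHG8, a choice made after seeing the data, Spearman's coefficient with the HCC1569 log2 ratio was 0.54 for GC and -0.52 for length. The part of transcript composition in the HCC1569 ratios was not tested.

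**Figure D5:**
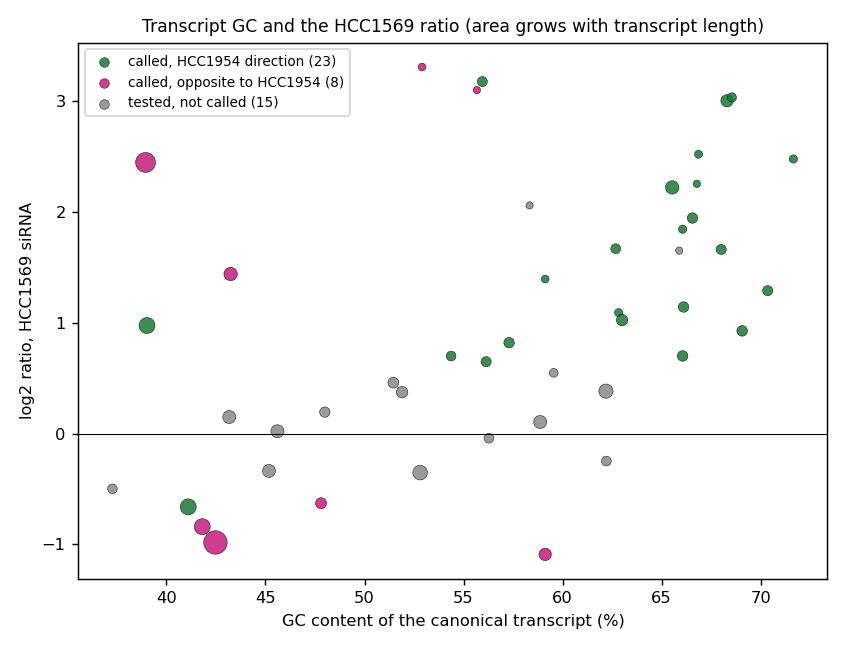
Log2 ratio in HCC1569 against the GC content of the canonical transcript for the 46 tested genes, coloured by call, with the point area growing with transcript length. Genes with the HCC1954 direction have a median GC content of 66.1%, with SNHG8, whose canonical transcript is longer than its listed locus, and ICK at the low end, and the long transcripts of TTL and DCBLD2 lie at the lower left.

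The 22 genes not tested in HCC1569 were mostly low there. Of these, 12 were under 1 FPKM in both groups, 3 of the 22 (CDH5, CES1P2 and SFTA1P) listed at 0 in both, and 10 reached 1 FPKM in at least 1 group. Their median was 0.401 FPKM with TFAP2C siRNA and 0.266 FPKM with non-targeting siRNA in HCC1569. In HCC1954 the same genes had medians of 12.4 FPKM with TFAP2C siRNA and 9.54 FPKM with non-targeting siRNA. The authors' deposited table marks them as not tested, so nothing can be said of their response in HCC1569.

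Several of the untested genes had higher levels in at least 1 of the HCC1954 groups. HMGA2, a chromatin architectural protein, was at 0.0211 FPKM with TFAP2C siRNA and 0.0386 FPKM with non-targeting siRNA in HCC1569. In HCC1954 it was at 4.09 FPKM with TFAP2C siRNA and 1.25 FPKM with non-targeting siRNA, and at 81.1 FPKM with TFAP2C shRNA and 0.505 FPKM with control shRNA. AREG, the EGFR ligand amphiregulin, was at 1.08 FPKM with TFAP2C siRNA and 0.251 FPKM with non-targeting siRNA in HCC1569. In HCC1954 it was at 20.2 FPKM with TFAP2C siRNA and 10.6 FPKM with non-targeting siRNA, and at 131 FPKM with TFAP2C shRNA and 5.16 FPKM with control shRNA. Of these groups, both were thus highest in the shRNA knockdown of HCC1954.

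LBP, the lipopolysaccharide-binding protein gene, was at 0.0981 FPKM with TFAP2C siRNA and 0.0452 FPKM with non-targeting siRNA in HCC1569. In HCC1954 it was at 28.5 FPKM with TFAP2C siRNA and 82.5 FPKM with non-targeting siRNA, and was listed at 0 with TFAP2C shRNA and at 55.6 FPKM with control shRNA. IGFBP5, an IGF-binding protein, was at 0.109 FPKM with TFAP2C siRNA and 0.282 FPKM with non-targeting siRNA in HCC1569, at 30.5 FPKM with TFAP2C siRNA and 67.8 FPKM with non-targeting siRNA in HCC1954, and at 0.107 FPKM with TFAP2C shRNA and 18.7 FPKM with control shRNA there. These 2 genes were as low in the shRNA knockdown of HCC1954 as in HCC1569, or listed at 0. UGT1A6, a glucuronosyltransferase, was at 0.0683 FPKM with TFAP2C siRNA and listed at 0 with non-targeting siRNA in HCC1569. In HCC1954 it was at 97.8 FPKM with TFAP2C siRNA and 165 FPKM with non-targeting siRNA, and was listed at 0 with TFAP2C shRNA and at 82.5 FPKM with control shRNA. In files without read counts a listed 0 may be a failed estimate.

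CDH5, the gene of VE-cadherin, was listed at 0 in both HCC1569 groups. In HCC1954 it was at 0.559 FPKM with TFAP2C siRNA and 4.04 FPKM with non-targeting siRNA, and was listed at 0 with TFAP2C shRNA and at 9.59 FPKM with control shRNA, while in SKBR3 it was at 29.2 FPKM with TFAP2C siRNA and 10.8 FPKM with non-targeting siRNA. PECAM1, an endothelial adhesion molecule, was at 0.0124 FPKM with TFAP2C siRNA and listed at 0 with non-targeting siRNA in HCC1569. In HCC1954 it was at 18.5 FPKM with TFAP2C siRNA and 27.0 FPKM with non-targeting siRNA, and at 0.0180 FPKM with TFAP2C shRNA and 11.6 FPKM with control shRNA. AKR1B15, an aldo-keto reductase with a close copy, was at 0.590 FPKM with TFAP2C siRNA and 0.219 FPKM with non-targeting siRNA in HCC1569, and HOXB9, a homeobox gene, at 0.116 FPKM with TFAP2C siRNA and 0.0455 FPKM with non-targeting siRNA. ELFN2, a neuronal membrane protein, was at 0.212 FPKM with TFAP2C siRNA and 0.306 FPKM with non-targeting siRNA, and PTPRH, a receptor tyrosine phosphatase, at 1.05 FPKM with TFAP2C siRNA and 0.741 FPKM with non-targeting siRNA. GPX1, a glutathione peroxidase gene that nearly every cell uses, was listed at 0 FPKM with TFAP2C siRNA and 0.220 FPKM with non-targeting siRNA in HCC1569 and at 0 FPKM with TFAP2C siRNA and 0.0565 FPKM with non-targeting siRNA in SKBR3, against 203 FPKM with TFAP2C siRNA and 143 FPKM with non-targeting siRNA, and 226 FPKM with TFAP2C shRNA and 204 FPKM with control shRNA, in HCC1954. Its 0 may be a failed estimate and not an absence of RNA.

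The remaining untested genes lay between 0.909 and 5.50 FPKM, apart from the pseudogenes CES1P2 and SFTA1P at 0. PLEKHG3, an actin-associated exchange factor, was at 5.43 FPKM with TFAP2C siRNA and 5.50 FPKM with non-targeting siRNA, and ZNF702P, a zinc finger pseudogene, at 3.30 FPKM with TFAP2C siRNA and 2.49 FPKM with non-targeting siRNA. The sulfotransferase gene UST was at 2.28 FPKM with TFAP2C siRNA and 2.31 FPKM with non-targeting siRNA, the cell cycle factor gene E2F2 at 1.81 FPKM with TFAP2C siRNA and 1.93 FPKM with non-targeting siRNA, and the glucuronidase pseudogene GUSBP11 at 1.54 FPKM with TFAP2C siRNA and 1.42 FPKM with non-targeting siRNA. The forkhead gene FOXD1 was at 1.11 FPKM with TFAP2C siRNA and 2.01 FPKM with non-targeting siRNA, ARHGAP23 at 0.965 FPKM with TFAP2C siRNA and 1.60 FPKM with non-targeting siRNA, and RASL11A, a RAS-like GTPase, at 0.909 FPKM with TFAP2C siRNA and 1.04 FPKM with non-targeting siRNA. None of these was tested, so a difference between the groups is not claimed.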

How the data were processed

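RNA sequencing covered 24 samples in 8 groups of 3, given as 4 deposited comparison tables. The submitters' processing notes name Bowtie 0.12.2 and Cuffdiff, the second without a version, and hg19 and GRCh37 as builds. Per the file headers, the authors gave FPKM as 1 pooled value for each group. The authors' test statistic (a score), p-value and q-value were taken as deposited. Values of single samples were not used here, so depth is unknown and no model was fitted over samples. Of the 68 loci, 64 lie on the RefSeq gene of that name in GRCh38 and 4 on its alternate contigs, although the notes name GRCh37. The HCC1569 q-values differ from a Benjamini-Hochberg adjustment over the 46 tested rows, by a relative 0.568 at most. One HCC1954 table names only the siRNA in its columns, and its line was read from the deposited file's name.

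RefSeq accessions of the genome-wide tables matched a symbol in 65468 of 66321 cases. A gene was read from whichever of its accessions averaged highest in FPKM over 6 groups, and 22 members had several. HCC1569 has a single row for each gene. For these 22 members the ratio of a single transcript is thus set beside that of the gene's row. Ratios carry no pseudocount. The z statistic of a gap between lines is two-sided and takes each standard error as the log2 ratio over the deposited statistic. It was tested on simulated data with the HCC1569 errors on both sides. There it recovered 6.35% of log2 changes of 2 and 91% of log2 changes of 6. With siRNA in HCC1954 the errors were smaller for most genes, for STEAP4 0.37 log2 units against 0.91 in HCC1569. The recovered shares thus describe the simulated setting and not the gaps compared here. A gene short of the threshold may still differ between the lines. Transcript GC and length are those of canonical transcripts in GENCODE v44lift37 (67 of 68 members). By the naming rule all 68 genes are given, the called ones with HCC1954 values, the 10 largest rises and the falls with deposited statistics, and the 5 largest z of each sign. IGSF9, HPSE, KLF4, GDF15, EGFR and TFAP2A, which the rule also names, are not members and are not described. ERBB2 is not a member either, and its levels are given for HCC1954 alone. The members and lists were chosen with earlier results of these data known. Python 3.11.15, pandas 2.3.3, numpy 2.4.6 and scipy 1.17.1 were used.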

Additional observations from a re-analysis of the deposited data

Results flagged for a closer look

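The gap between HCC1569 and HCC1954 was past the threshold of the z statistic in 7 cases. Each gene had been called in HCC1954 to be in the list, so these gaps hold a selected value and are given as a description. With siRNA in both lines, STEAP4 differed by 3.30 log2 units (18.6 FPKM with TFAP2C siRNA against 3.41 FPKM with non-targeting siRNA in HCC1569, and 123 FPKM with TFAP2C siRNA against 222 FPKM with non-targeting siRNA in HCC1954). Set against shRNA in HCC1954, the log2 difference was 17.8 for S100A9, 15.5 for STEAP4, 4.98 for CTGF, 4.42 for SRD5A3, -2.46 for DUSP7 and -3.34 for DCBLD2. The S100A9 and STEAP4 sizes rest on shRNA knockdown levels of 0.416 and 0.0406 FPKM, and that of CTGF on 0.787 FPKM.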

How the results depend on the processing

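No paired analysis was possible because each table holds 1 pooled value a group, and leaving out a sample could not be run for the same reason. Adjusting p over the HCC1569 rows alone was not used as an alternative, since the rows were selected. Of the HCC1569 counts, that of falls moved to 3 at a q threshold of 0.01, and the others stayed within 1.5 times under every alternative run. In HCC1569, 5 calls were lost at that threshold and 0 genes changed sign with a pseudocount of 1 FPKM. At q under 0.01 the HCC1954 siRNA calls fell to 38 (25 higher and 13 lower). With shRNA, 8 lower genes had at least 1 FPKM in both groups, and 30 higher genes passed a pseudocount of 1 FPKM with an absolute log2 ratio of at least 0.5. That setting left 16 SKBR3 calls, 5 higher and 11 lower. The z statistic of the gap, a description, was past its threshold for 26 genes (siRNA) and 21 (shRNA) when errors came from the deposited p, and 2 (shRNA) with at least 1 FPKM in all groups. The cause was not tested. Without entries on alternate contigs 29 HCC1569 calls were left, and without near-identical copies 28, both chosen after seeing the data. With a spacer of 3 or 4 bases the AP-2 motif was in windows of 25 genes.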
